A study of Homo sapiens with 9 samples.

Results

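The 10 genes described here supply cells with serine, asparagine and one-carbon units, and carry the amino acids concerned across the plasma membrane. They were chosen by name from a table of TPM (a share of all transcripts, corrected for transcript length, that sums to the same total in each library) that lists 62703 genes, and each of the 10 names matched 1 line. The genes are PHGDH, PSAT1 and PSPH of serine synthesis, SHMT2, MTHFD2 and ALDH1L2 of mitochondrial folate metabolism, the asparagine synthetase gene ASNS, and the transporter genes SLC7A5, SLC3A2 and SLC1A5. Of the 10, 9 had a mean of at least 1 TPM over all libraries and were tested, among 13443 genes that did. RNA came from cells labelled HepG2, the name of a line from a human liver cancer, in 9 libraries of 3 groups. One group of 3 received 750 µM palmitic acid for 24 h and then 20 µM curcumin for 12 h with 5 µM CuCl2 added. A second group of 3 received the same palmitic acid and then 20 µM curcumin for 12 h. The 3 libraries of the third group had palmitic acid alone, at the same dose and time. All groups therefore carry palmitic acid, and the labels describe neither untreated cells nor a vehicle control, nor a further 12 h for the cells with palmitic acid alone.

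Serine is made from the glycolytic intermediate 3-phosphoglycerate in a chain of reactions by PHGDH, a dehydrogenase, PSAT1, an aminotransferase, and PSPH, a phosphatase. Serine hydroxymethyltransferase then passes a carbon from serine to folate, and folate enzymes in mitochondria and cytosol pass it on for nucleotide synthesis, methylation and NADPH. Many of these genes, with ASNS and several amino acid transporter genes, are known targets of ATF4, a transcription factor whose translation increases under amino acid shortage and other stresses. Curcumin is a plant polyphenol that binds metals, and palmitic acid is a saturated fatty acid.

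The labelled cell type was not borne out by its markers. All 10 hepatocyte markers examined had a mean under 1 TPM, and ALB, TTR, APOA2, APOB and FGB were listed at 0 in every library. Their summed level was 0.74 to 1.46 TPM with curcumin and CuCl2, 0.74 to 2.2 TPM with curcumin and 0.76 to 0.81 TPM with palmitic acid alone. Epithelial markers, 3 of 6 of them under 1 TPM, summed to 2637 to 2715, 2505 to 2865 and 3314 to 3812 TPM in the same 3 groups, and their part in the results below was not tested. Fibroblast markers summed to at most 16.6 TPM in any library, leukocyte markers to at most 11 TPM and endothelial markers to at most 1.2 TPM. Genes encoded by mitochondrial DNA held 10.1% to 13% of the TPM per library. In bulk RNA, fewer cells of a type and less RNA per cell cannot be told apart. TPM keeps no depth, so the reads behind a value are unknown.

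Of the 9 genes tested, PHGDH and ASNS rose in both curcumin groups against palmitic acid alone, by 1.38- to 1.45-fold, and none fell. Among all genes tested, 1.44% passed for curcumin with CuCl2 and 1.96% for curcumin, of which 0.543% and 0.759% were higher and 0.9% and 1.21% lower. The libraries of the 2 groups did not overlap, with the treated ones higher, for 5 of the 9 genes with curcumin and CuCl2 and for 3 of the 9 with curcumin. Across all genes tested that held for 8.67% and 8.15%. The median log2 fold change of the 9 genes was 0.26 with curcumin and CuCl2 and 0.20 with curcumin, beside -0.03 and -0.02 over all genes. Both medians are the value of MTHFD2 and rest on single libraries: without replicate 3 of palmitic acid alone they were 0.09 and 0.02. For curcumin, the median was 0.10 without replicate 2 of curcumin and 0.34 without replicate 1 of palmitic acid alone. Both comparisons use the same 3 libraries of palmitic acid alone. The levels spanned a wide range. SLC3A2, the most abundant, had a mean of 992 TPM over the 9 libraries, SLC7A5 437 TPM, SHMT2 419 TPM, PHGDH 257 TPM, SLC1A5 221 TPM, PSAT1 219 TPM, MTHFD2 181 TPM, ASNS 171 TPM and PSPH 107 TPM, while ALDH1L2 had 0.113 TPM.

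**Figure D1:**
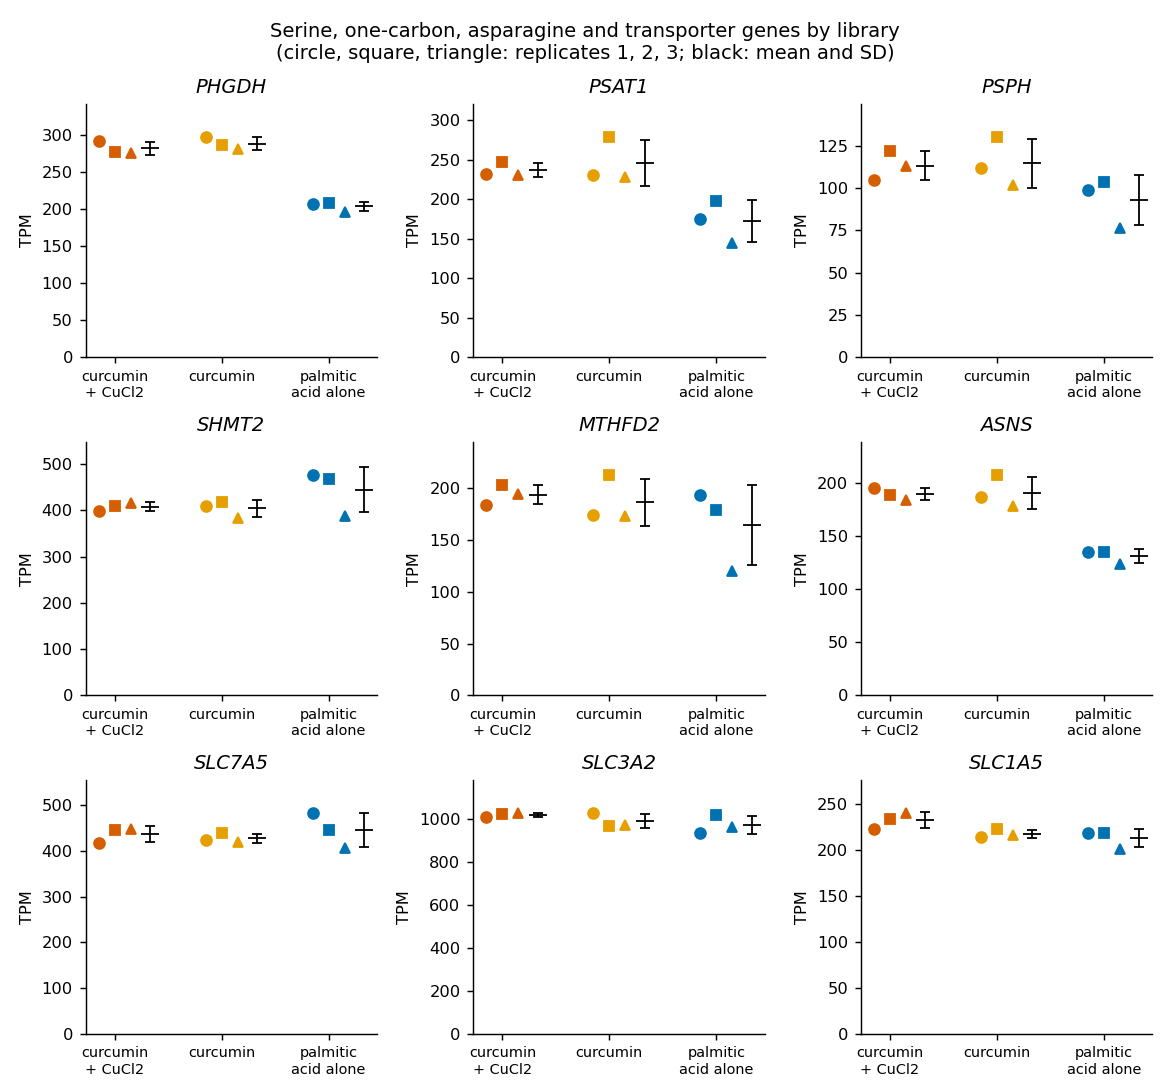
Level in TPM of the 9 tested genes, 1 panel per gene, with 3 libraries each for curcumin with CuCl2, curcumin and palmitic acid alone. Points are libraries and the black bar is the group mean with its SD. The 6 curcumin libraries of PHGDH lie at 276 to 297 TPM, above 196 to 207 TPM with palmitic acid alone, while those of SLC7A5 lie among the libraries with palmitic acid alone.

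PHGDH, which catalyses the first step of serine synthesis, is on chromosome 1 at chr1:119648411-119744226 on the plus strand (GRCh38). Its level was 291, 277 and 276 TPM with curcumin and CuCl2, 297, 286 and 280.4 TPM with curcumin, and 207, 207 and 196 TPM with palmitic acid alone. Every treated library lay above every library with palmitic acid alone, and the 2 treated groups overlapped. The means were 281 ± 8.72 TPM with curcumin and CuCl2 and 203 ± 6.66 TPM with palmitic acid alone (SD, n = 3 each), a log2 fold change of 0.47 (SE 0.06, limma with Benjamini-Hochberg adjusted p = 0.00576). Curcumin, at 288 ± 8.58 TPM, gave 0.50 (SE 0.06, limma adjusted p = 0.00351). PHGDH passed under all 18 alternative settings in both comparisons, with a limma adjusted p of at most 0.0427 and 0.0422.

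PSAT1, the aminotransferase gene of the next step, is at chr9:78297143-78330093 on the plus strand. It had 233, 247 and 231 TPM with curcumin and CuCl2, 230.4, 279 and 228 TPM with curcumin, and 176, 198 and 145 TPM with palmitic acid alone. No treated library fell among those of palmitic acid alone, but replicate 2 of curcumin stood above its group and the libraries with palmitic acid alone were spread widely. The estimates, 0.46 with curcumin and CuCl2 (SE 0.12, 95% interval 0.20 to 0.73) and 0.51 with curcumin (SE 0.12, 95% interval 0.25 to 0.77), were close in size to those of PHGDH. Neither passed the test over all genes (limma adjusted p = 0.0936 and 0.0663). With median-of-ratios scaling they passed, at 0.0236 for curcumin with CuCl2 and 0.017 for curcumin, and with a minimum mean of 5 TPM only the second did, at 0.0493.

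PSPH, whose phosphatase releases serine in the last step, is at chr7:56011051-56051604 on the minus strand. Its libraries had 104, 122 and 113 TPM with curcumin and CuCl2, 112, 130.3 and 102 TPM with curcumin, and 98.7, 104 and 76.2 TPM with palmitic acid alone. Replicate 3 of palmitic acid alone was the lowest of the 9, and the curcumin libraries overlapped those of palmitic acid alone. The log2 fold change was 0.29 with curcumin and CuCl2 (95% interval from just above 0 to 0.58, limma adjusted p = 0.367) and 0.31 with curcumin (95% interval 0.01 to 0.60, limma adjusted p = 0.331). Without replicate 3 of palmitic acid alone the estimates were 0.16 and 0.17. PSPHP1, a pseudogene of PSPH that could share its reads, had 14.1, 28 and 15.1 TPM with curcumin and CuCl2, 12.7, 15.7 and 7.59 TPM with curcumin, and 16.7, 19.7 and 17.5 TPM with palmitic acid alone. How reads were divided between gene and pseudogene is not known, so the values of PSPH carry that uncertainty. The log2 ratio of PSPH to PHGDH within a library, which does not depend on library scaling, averaged -1.32 ± 0.15 with curcumin and CuCl2, -1.34 ± 0.18 with curcumin and -1.14 ± 0.19 with palmitic acid alone (SD, n = 3 each). The groups overlapped (exact permutation test, two-sided, p = 0.3 for curcumin with CuCl2 and p = 0.2 for curcumin against palmitic acid alone, both 1 after adjustment over 9 tests, where 3 against 3 cannot go below p = 0.1).

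**Figure D2:**
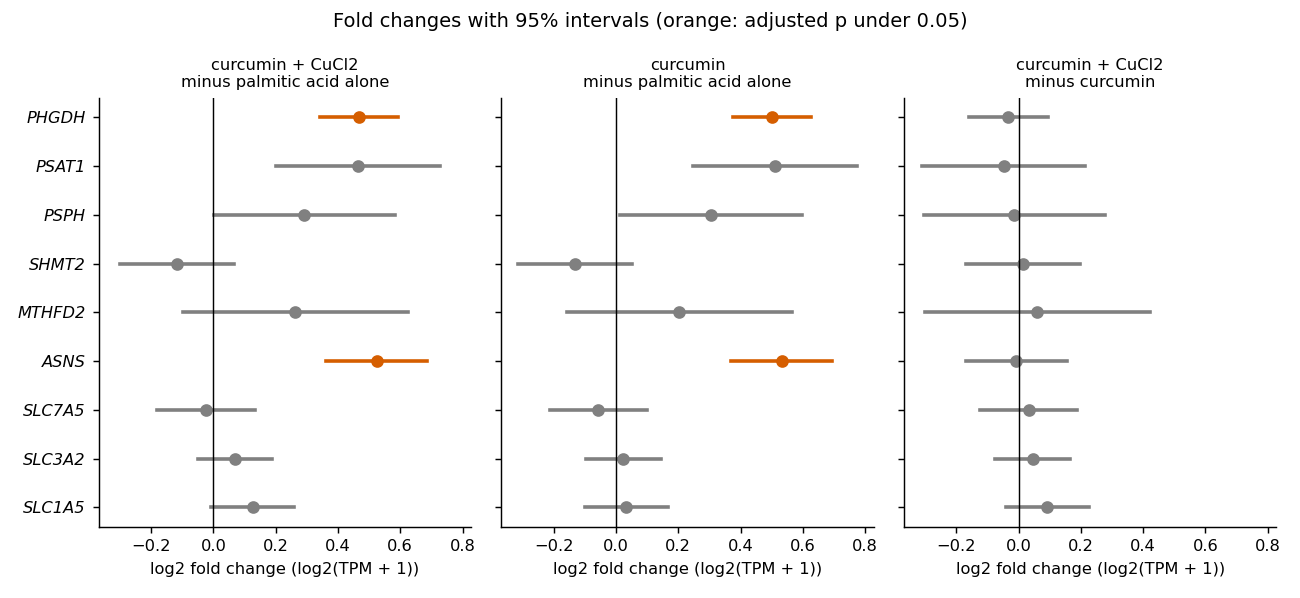
Log2 fold change (x axis, on the log2(TPM + 1) scale) of the 9 genes tested, with 95% intervals, for curcumin with CuCl2 and for curcumin against palmitic acid alone, and for curcumin with CuCl2 against curcumin. Orange marks an adjusted p under 0.05, reached by PHGDH (0.47 and 0.50) and ASNS (0.52 and 0.53) in the first 2 panels and by no gene in the third, where every interval includes 0.

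SHMT2, which encodes the mitochondrial serine hydroxymethyltransferase, is at chr12:57229327-57234935 on the plus strand. It had 398, 409.7 and 417 TPM with curcumin and CuCl2, 409.8, 419 and 384 TPM with curcumin, and 476, 468 and 388 TPM with palmitic acid alone. Both treated groups overlapped palmitic acid alone through its replicate 3, the lowest of that group. The log2 fold changes were -0.12 (95% interval -0.30 to 0.07) and -0.13 (95% interval -0.31 to 0.05), with limma adjusted p = 0.602 for curcumin with CuCl2 and 0.549 for curcumin. Without that library they were -0.21 and -0.23, closer to the threshold (limma adjusted p = 0.0708 and 0.0583). The log2 ratio of PHGDH to SHMT2, a pair chosen after the values were seen, averaged -0.54 ± 0.08 with curcumin and CuCl2, -0.49 ± 0.05 with curcumin and -1.12 ± 0.12 with palmitic acid alone (SD, n = 3 each). Its differences from palmitic acid alone were 0.59 and 0.63 with no overlap of libraries (exact permutation test, two-sided, p = 0.1 each, the smallest that 3 against 3 allows, and 0.15 after adjustment over 3 tests). Because the pair was chosen on values already seen, neither the lack of overlap nor these p-values are evidence of a change. How often the ratios of other gene pairs do not overlap was not counted.

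MTHFD2, the gene of a mitochondrial folate dehydrogenase that is abundant in many tumours, is at chr2:74198562-74217565 on the plus strand. Its level was 184, 202 and 194 TPM with curcumin and CuCl2, 173, 212 and 173 TPM with curcumin, and 193, 179 and 120.2 TPM with palmitic acid alone. Replicate 3 of palmitic acid alone stood below the other 8 libraries, which overlapped across groups. The log2 fold change was 0.26 with curcumin and CuCl2 (95% interval -0.10 to 0.63, limma adjusted p = 0.542) and 0.20 with curcumin (95% interval -0.16 to 0.56, limma adjusted p = 0.667). Without replicate 3 of palmitic acid alone the values were 0.06 and -0.01. The estimate stayed positive in all 18 alternatives for curcumin with CuCl2 and, apart from that one, in every alternative run for curcumin.

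ALDH1L2, which encodes a mitochondrial enzyme that oxidises formyl-tetrahydrofolate to release NADPH and carbon dioxide, is at chr12:105019784-105084577 on the minus strand and was nearly absent. It was listed at 0.08, 0.06 and 0.05 TPM with curcumin and CuCl2, 0.06, 0.32 and 0.01 TPM with curcumin, and 0.35, 0.05 and 0.04 TPM with palmitic acid alone. The groups overlapped and the gene was left out of the test. The log2 ratio of MTHFD2 to ALDH1L2 ranged from 9.11 to 14.1 over the 9 libraries. Its exact permutation tests gave p = 0.6 for curcumin with CuCl2 and p = 0.7 for curcumin against palmitic acid alone, and rest on values of ALDH1L2 near 0.

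Other folate genes did not move as a group. Of 28 listed folate enzyme and transporter genes, 24 were tested and none passed in either comparison. Their median log2 fold change was -0.08 with curcumin and CuCl2 and -0.06 with curcumin, beside -0.03 and -0.02 over all genes. The largest estimates were those of MTHFS, which recycles formyl-folate, at 0.41 with curcumin (33.8 ± 0.656 TPM with curcumin and CuCl2, 38.1 ± 4.47 TPM with curcumin and 28.6 ± 4.88 TPM with palmitic acid alone), and of SFXN2, of the sideroflexin family of mitochondrial carriers, at -0.38 (2.89 ± 0.396, 2.65 ± 0.791 and 3.70 ± 0.601 TPM in the same order). Neither passed (limma adjusted p = 0.162 and 0.422 with curcumin). ATIC, a purine synthesis gene that uses formyl-folate, passed for curcumin with CuCl2 only when replicate 3 of palmitic acid alone was left out (0.35, limma adjusted p = 0.0234) or when the mitochondrial share was a covariate.

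ASNS makes asparagine from aspartate and glutamine and is a standard readout of ATF4 activity. The gene is at chr7:97852118-97872542 on the minus strand. Its level was 195, 189 and 184 TPM with curcumin and CuCl2, 187, 208 and 178 TPM with curcumin, and 135, 135 and 124 TPM with palmitic acid alone. All 6 treated libraries lay above the 3 with palmitic acid alone, and the 2 treated groups overlapped. The means were 189 ± 5.59 TPM with curcumin and CuCl2 and 131 ± 6.41 TPM with palmitic acid alone (SD, n = 3 each), a log2 fold change of 0.52 (SE 0.07, limma adjusted p = 0.00975). Curcumin, at 191 ± 15.1 TPM, gave 0.53 (SE 0.07, limma adjusted p = 0.00814). The first call was lost without replicate 1, 2 or 3 of curcumin with CuCl2, at a limma adjusted p of 0.068, 0.0549 and 0.0515, with fold changes of 0.50, 0.53 and 0.55. The second was lost when only its 2 groups were fitted (0.0854). An overlapping transcript on the same strand, AC079781.5, shares exon sequence with ASNS and had at most 3.58 TPM in any library.

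The promoter of ASNS is known for a nutrient-sensing unit that ATF4 binds, made of a C/EBP-ATF element and a second short element downstream of it. RefSeq windows of 300 bases (250 before and 50 after an annotated start, GRCh38.p14) were found for 7 of the 10 genes, 12 windows in all, and searched on both strands for TGATGNAA, the core of the C/EBP-ATF element, GTTACA, the second element of ASNS, and TGACNNNGC, the core of the antioxidant response element bound by NRF2. PSPH, SHMT2 and ALDH1L2 were not matched to a window. TGATGNAA was in 3 of the 12 windows and in 3.62% of 35116 RefSeq windows, TGACNNNGC in 4 and in 13.3%, and GTTACA in 1 and in 6.66%. The stretches of 30 bases around each match are shown because they place the ASNS unit beside the like-lettered matches of genes that did not pass the test, with the matched letters in capitals (a match on the other strand reads as its reverse complement).
ASNS, chr7:97872449-97872478, minus strand: caTGATGAAActtcccgcacgcGTTACAgg
SLC1A5, chr19:46784893-46784922, minus strand: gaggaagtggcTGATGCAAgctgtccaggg
SLC3A2, chr11:62881719-62881748, plus strand: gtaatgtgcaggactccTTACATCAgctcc
SLC3A2, chr11:62881651-62881680, plus strand: acgagggtgggTGACTCAGCgtcctccttc
SLC7A5, chr16:87869491-87869520, minus strand: ggcggggttccTGACGCAGCtgcgggcggc
SLC1A5, chr19:46787386-46787415, minus strand: tcctggatcttGCGAGGTCAgctcccgctc
MTHFD2, chr2:74198610-74198639, plus strand: cttccctcccgGCGCAGTCAccggcgcggt

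In ASNS the first matched base of TGATGAAA lay 68 bases before the start and that of GTTACA 48 bases before it. Both matches were in 1 of its 2 windows, and no other window held both. The SLC3A2 match to TGATGNAA lay after the start, and the matches of SLC3A2 and SLC1A5 belonged to starts inside these genes. The matched stretches of ASNS and MTHFD2 also lay inside the gene spans given above, as did the whole PHGDH window. Position inside the gene therefore does not set the ASNS matches apart. The windows of PHGDH and PSAT1 held none of the 3 motifs, which says only that these letters are not in the 300 bases. The 250 bases before the PSAT1 start are shown as the window of a serine synthesis gene without a match.
PSAT1, chr9:78296875-78297124, plus strand: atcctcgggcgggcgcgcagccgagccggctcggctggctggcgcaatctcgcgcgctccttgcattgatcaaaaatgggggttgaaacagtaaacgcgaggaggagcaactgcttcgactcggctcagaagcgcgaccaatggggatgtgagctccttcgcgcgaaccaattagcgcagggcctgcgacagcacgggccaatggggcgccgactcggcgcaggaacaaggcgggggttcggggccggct

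Among 26 other amino acid enzyme genes, 21 were tested and 1 rose in each comparison. It was ASS1, which encodes argininosuccinate synthase and like ASNS takes aspartate as substrate, with 538, 513 and 521 TPM with curcumin and CuCl2, 508, 500.5 and 512 TPM with curcumin, and 407, 394 and 434 TPM with palmitic acid alone. Its log2 fold change was 0.35 with curcumin and CuCl2 (SE 0.06, limma adjusted p = 0.0173) and 0.30 with curcumin (SE 0.06, limma adjusted p = 0.0295). It passed in 11 of 18 alternatives for curcumin with CuCl2 and in 5 of 18 for curcumin, and was lost with median-of-ratios scaling (0.122 and 0.175). NIT2, an omega-amidase gene, had estimates of 0.36 with curcumin and CuCl2 and 0.35 with curcumin that did not pass (limma adjusted p = 0.0628 and 0.0611). They passed in 3 of 18 alternatives in each comparison. The median of the list was 0.07 with curcumin and CuCl2 and 0.11 with curcumin.

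The transporter genes did not pass in either comparison. SLC7A5 encodes the light chain, and SLC3A2 the heavy chain, of a heterodimer that exchanges large neutral amino acids, and SLC1A5 encodes a transporter of glutamine and other small neutral amino acids, serine and asparagine among them. SLC7A5, at chr16:87830023-87869488 on the minus strand, had 418, 447 and 447 TPM with curcumin and CuCl2, 423, 439 and 420.5 TPM with curcumin, and 482, 447 and 407 TPM with palmitic acid alone. The treated values lay within the range of palmitic acid alone. Its log2 fold change had a 95% interval of -0.18 to 0.13 with curcumin and CuCl2 and of -0.21 to 0.10 with curcumin.

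SLC3A2, at chr11:62856102-62888875 on the plus strand, had 1006, 1024 and 1024 TPM with curcumin and CuCl2, 1025, 965 and 971 TPM with curcumin, and 935, 1015 and 963 TPM with palmitic acid alone. The groups overlapped, and the 95% intervals were -0.05 to 0.19 and -0.10 to 0.14. Within a library, the log2 ratio of SLC7A5 to SLC3A2 averaged -1.22 ± 0.04 with curcumin and CuCl2, -1.21 ± 0.07 with curcumin and -1.13 ± 0.15 with palmitic acid alone (SD, n = 3 each, exact permutation p = 0.4 and 0.6 against palmitic acid alone, two-sided). The heavy chain gene was thus the more abundant of the pair in each group, with a median SLC7A5 to SLC3A2 ratio of 0.436, 0.433 and 0.44 in the same order.

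SLC1A5, at chr19:46774883-46788594 on the minus strand, had 223, 234 and 239.9 TPM with curcumin and CuCl2, 215, 222 and 216 TPM with curcumin, and 218, 219 and 201 TPM with palmitic acid alone. The libraries with curcumin and CuCl2 lay above those of both other groups, by a small margin. The log2 fold change was 0.13 with curcumin and CuCl2 (95% interval -0.01 to 0.26, limma adjusted p = 0.402) and 0.03 with curcumin (95% interval -0.10 to 0.17, limma adjusted p = 0.89).

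Of 24 other amino acid transporter genes, 17 were tested, none rose, and SLC38A5 fell in both comparisons. SLC38A5 encodes a sodium-coupled carrier of glutamine, asparagine, serine and other neutral amino acids. It had 13.2, 14 and 13.5 TPM with curcumin and CuCl2, 14.6, 15.1 and 15.2 TPM with curcumin, and 21, 21.7 and 20.8 TPM with palmitic acid alone, with no overlap between treated libraries and palmitic acid alone. The log2 fold change was -0.61 with curcumin and CuCl2 (SE 0.08, limma adjusted p = 0.00786) and -0.47 with curcumin (SE 0.08, limma adjusted p = 0.0221). The first call held in 16 of 18 alternatives and the second in 9 of 18, at a limma adjusted p of up to 0.0582 and 0.141. SLC7A11, the gene of the cystine and glutamate exchanger, had 34.7 ± 1.84 TPM with curcumin and CuCl2, 36.3 ± 8.63 TPM with curcumin and 29.5 ± 8.57 TPM with palmitic acid alone, and did not pass (limma adjusted p = 0.67 and 0.607). SLC7A6, of a related exchanger, had estimates of -0.49 and -0.50 that did not pass either. In both comparisons SLC7A11 and SLC7A6 passed in 1 of 18 alternatives, with mitochondrial share as a covariate. In that fit 1370 genes passed for curcumin with CuCl2 and 1457 for curcumin.

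**Figure D3:**
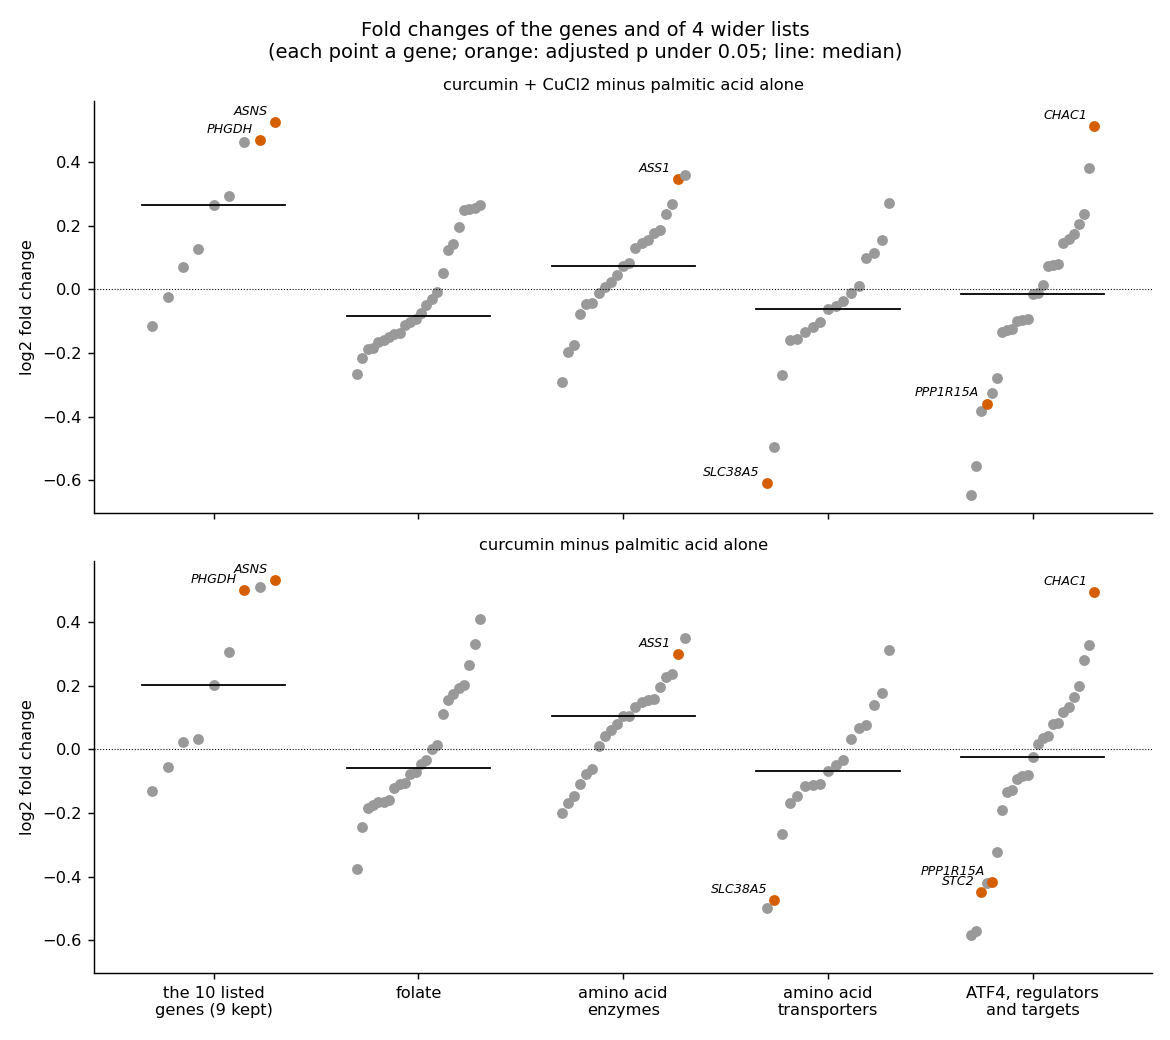
Log2 fold change (y axis) of each tested gene among the 10 listed genes and in 4 wider lists, for curcumin with CuCl2 (upper panel) and curcumin (lower panel) against palmitic acid alone. Orange marks an adjusted p under 0.05 and lines are medians. PHGDH and ASNS lie near the top of the first column at 0.47 to 0.53, and CHAC1 near 0.50 in the last, while the folate column holds no orange point.

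ATF4, its regulators and further targets formed the last list. ATF4 had 902, 875 and 892 TPM with curcumin and CuCl2, 910.1, 854 and 893 TPM with curcumin, and 765, 778 and 773 TPM with palmitic acid alone. All treated libraries lay above palmitic acid alone, but the estimates of 0.20 (SE 0.05) and 0.20 (SE 0.05) did not pass (limma adjusted p = 0.0803 and 0.0837). With mitochondrial share as a covariate both passed, at 0.20 and 0.19 (limma adjusted p = 0.00741 and 0.00876). In that fit 1370 and 1457 of all genes passed. All 25 genes in this list were tested. Without the covariate, 1 rose and 1 fell with curcumin and CuCl2, and 1 rose and 2 fell with curcumin. The medians were -0.01 and -0.02.

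The gene that rose was CHAC1, an ATF4 target that encodes a glutathione-degrading enzyme, with 56.5, 55.9 and 56.5 TPM with curcumin and CuCl2, 54.4, 56.6 and 55.7 TPM with curcumin, and 40.6, 39.8 and 37.2 TPM with palmitic acid alone. Its log2 fold change was 0.51 (SE 0.07, limma adjusted p = 0.00705) and 0.49 (SE 0.07, limma adjusted p = 0.00755), and it passed in 16 of 18 alternatives in each comparison. PPP1R15A, whose product helps to remove the phosphate from eIF2alpha and so limits the stress response upstream of ATF4, fell by 0.36 with curcumin and CuCl2 and fell by 0.42 with curcumin (limma adjusted p = 0.0286 and 0.0159). Its means were 297 ± 7.39, 285 ± 17.6 and 381 ± 17.2 TPM in the order curcumin with CuCl2, curcumin and palmitic acid alone. These calls held in 8 and 13 of 18 alternatives and were lost with median-of-ratios scaling (0.153 and 0.083). STC2, a secreted glycoprotein gene induced by ATF4, fell by 0.45 with curcumin near the threshold (limma adjusted p = 0.0498, past it in 6 of 18 alternatives) and had -0.33 with curcumin and CuCl2 (0.143). ATF3, which encodes a related stress factor, had estimates of -0.55 and -0.58 that did not pass (0.113 and 0.0897), and passed in 3 of 18 alternatives, at -0.75 and -0.78 without replicate 3 of palmitic acid alone. EIF2AK2, the gene of the eIF2alpha kinase PKR and also an interferon-stimulated gene, had -0.65 and -0.57 without passing (0.173 and 0.221), and passed at -0.91 and -0.83 without the same library.

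Adding CuCl2 to curcumin was compared with curcumin to ask whether copper altered these transcripts. Of the 9 genes, none passed, and among all 13443 genes tested 0% passed with limma. At an unadjusted p under 0.05 the count was 215 of all genes, or 1.6%, and 0 of the 9. That share is below the 0.05 expected of such a threshold without any effect. The p-values of this comparison were thus cautious over the whole table, and the lack of calls does not show a lack of effect. The log2 fold change was -0.01 for ASNS (95% interval -0.17 to 0.15), -0.03 for PHGDH (-0.16 to 0.09) and -0.05 for PSAT1 (-0.31 to 0.21). For MTHFD2 it was 0.06 with a wide interval (-0.30 to 0.42). These intervals and p-values use a spread pooled over all 9 libraries, those with palmitic acid alone included. For MTHFD2 the SE was 0.16, and 0.09 without replicate 3 of palmitic acid alone. SLC1A5 was the 1 gene of the 9 whose groups did not overlap, at 0.09 (95% interval -0.04 to 0.23), while 2.63% of all genes tested were higher without overlap. The intervals of ASNS and PHGDH leave out a change in either direction as large as that seen against palmitic acid alone.

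Libraries of 1 group differed in the share of TPM held by mitochondrial genes, and some of the 9 genes differed with it. The share was 10.7%, 11.8% and 11.4% with curcumin and CuCl2, 10.4%, 12.4% and 10.9% with curcumin, and 13%, 12.5% and 10.1% with palmitic acid alone. MTHFD2 was highest in the library of the highest share in 3 of 3 groups, and PSAT1, PSPH, SHMT2 and SLC7A5 in 2 of 3. ASNS and SLC1A5 were so in 1 of 3, and PHGDH and SLC3A2 in 0 of 3. At the other end, SLC1A5 was lowest in the library of the lowest share in 3 of 3 groups. MTHFD2, PSPH, SHMT2 and SLC7A5 were so in 2 of 3, and ASNS, PHGDH, PSAT1 and SLC3A2 in 1 of 3. Neither order was counted over all genes, so these counts have no background beside them. With the log2 share as a covariate, PSAT1 passed at 0.52 with curcumin and CuCl2 and 0.58 with curcumin (limma adjusted p = 0.00295 and 0.00192), PSPH at 0.36 and 0.39 (0.0108 and 0.00815) and MTHFD2 at 0.36 and 0.32 (0.00451 and 0.007). SLC1A5 passed with curcumin and CuCl2 at 0.14 (0.0366). In that fit, 1370 and 1457 of all genes passed, against 194 and 264 without the covariate, so the background was higher too.

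**Figure D4:**
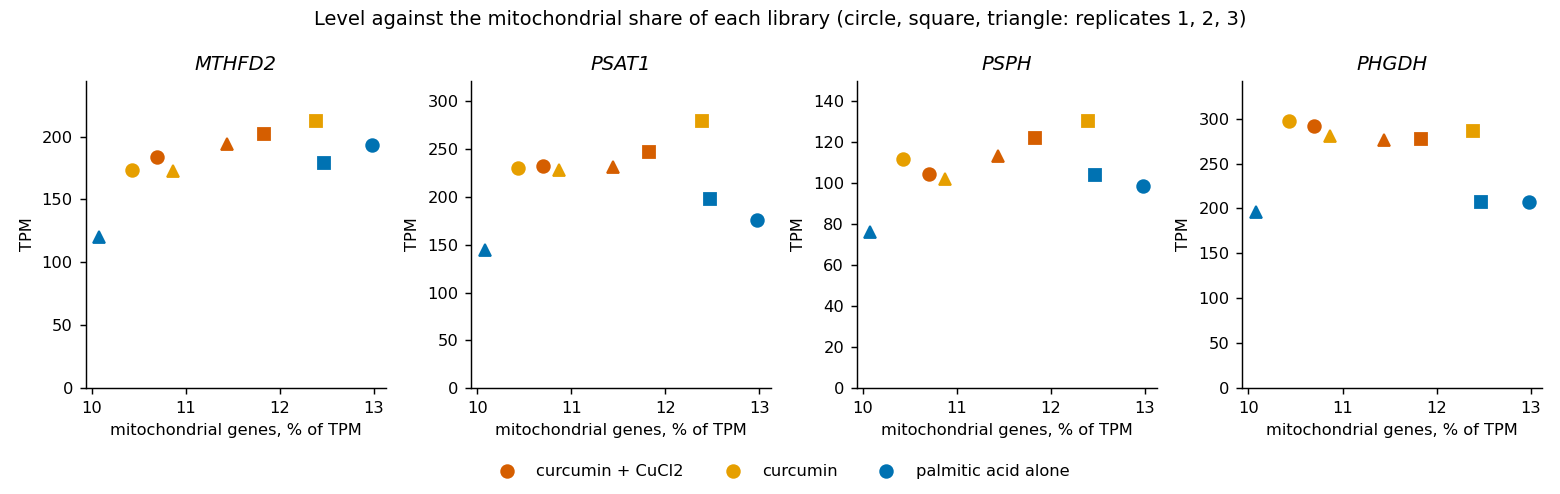
Level in TPM (y axis) against the percentage of TPM held by mitochondrial genes (x axis) in the 9 libraries, for MTHFD2, PSAT1, PSPH and PHGDH. Colours are the groups and shapes the replicates. Replicate 3 of palmitic acid alone, at 10.1%, has the lowest MTHFD2 (120.2 TPM), PSAT1 (145 TPM) and PSPH (76.2 TPM), and PHGDH changes little along the axis within a group.

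The genes nearest to ASNS and PHGDH in pattern were found by the root-mean-square difference of log2(TPM + 1) values, each centred on its own mean over the 9 libraries, among 9300 other genes averaging 5 TPM or more. This measure favours genes that differ between the groups by the same amount. Nearest to ASNS were TDP2 (0.04), a DNA repair phosphodiesterase gene, CHAC1 (0.05), the lysosomal galactosidase gene GLA (0.06), PHGDH (0.06) and the cathepsin gene CTSL (0.06). Nearest to PHGDH were CTSL (0.02), CHAC1 (0.04), GLA (0.05), the cytochrome P450 reductase gene POR (0.05) and the epoxide hydrolase gene EPHX1 (0.06). The log2 fold changes of these genes against palmitic acid alone lay between 0.39 for EPHX1 with curcumin and CuCl2 and 0.56 for GLA with curcumin.

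**Figure D5:**
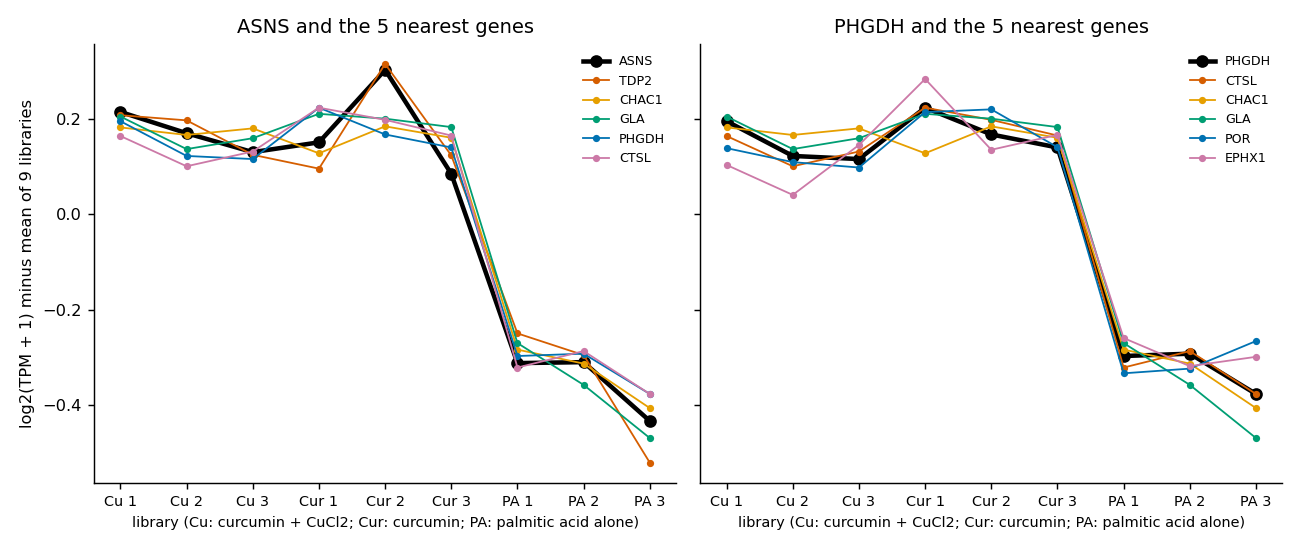
Log2(TPM + 1) minus the gene's mean over 9 libraries (y axis) for ASNS (left) and PHGDH (right), in black, with the 5 genes of the smallest root-mean-square difference, over 3 libraries each of curcumin with CuCl2, curcumin and palmitic acid alone. Lines only join the values of 1 gene. All the genes shown lie above 0 in the 6 curcumin libraries and below 0 in the 3 with palmitic acid alone.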

How the data were processed

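Polyadenylated RNA of 9 libraries was sequenced, per the labels' protocols with a stranded Illumina kit. The values are TPM as the authors deposited them. Per the submitters' processing notes, the tools were HISAT2 2.1.0 and RSEM 1.3.3 and the build GRCh38.p13, with no role, annotation release or strand setting given in the sources used here. Exons of 5 of the 10 genes overlap a gene on the opposite strand, and near copies were checked by name (3 of 20 reached 1 TPM, MTHFD2L, PSPHP1 and SLC7A5P2). No library repeated another. The labels do not say that replicates were separate cultures, so p-values measure only the spread between libraries.

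Genes averaging 1 TPM or more (13443, holding 99.7% of the TPM) were fitted as log2(TPM + 1) with limma 3.58.1 in R 4.3.3, all 9 libraries together, with a variance trend. This scale shrinks the fold change of low genes. Tests were two-sided with Benjamini-Hochberg adjustment over all genes kept, at 0.05. The script was checked on simulated data without effects shared by a library. That check required recovery only of fold changes larger than those of the genes described here. Ratios within a library were tested by exact permutation in scipy 1.17.1. Figures used matplotlib 3.10.9. Gene positions are from GENCODE 29, promoter windows from RefSeq.

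The members, the lists and the tests were chosen with earlier results of these data known. Named were the 10 genes, list genes past the threshold in any comparison, and ATF4. Also named were genes among the 3 with the largest absolute fold change per list in either comparison with palmitic acid alone (a part is printed), and the 5 nearest in pattern to ASNS and PHGDH. Tried as alternatives were median-of-ratios scaling, pseudocounts of 0.1 and 5, testing every gene, testing genes averaging 5 TPM or more, 2 groups only, a replicate block, no variance trend, mitochondrial share as covariate, and leaving out each library.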

Additional observations from a re-analysis of the deposited data

How the results depend on the processing

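PHGDH kept its direction and its call in all 18 alternatives in both comparisons with palmitic acid alone, and ASNS in 15 of 18 for curcumin with CuCl2 and 17 of 18 for curcumin. Of the 9 genes tested, 2 passed in each of these comparisons. The count was 1 when only curcumin and palmitic acid alone were fitted, where 45 of all genes passed. With mitochondrial share as a covariate it was 6 for curcumin with CuCl2 and 5 for curcumin, where 1370 and 1457 of all genes passed. Leaving out 1 library gave 1 to 2 for curcumin with CuCl2 and 2 throughout for curcumin. With the replicate number as a block, 3 passed in each comparison, PSAT1 being added (limma adjusted p = 0.0466 and 0.0306). The count over all genes with that block is not given here, so those 3 have no background beside them. Whether equal replicate numbers mark paired libraries is not stated in the labels. Deviations were correlated above 0.1 in 2 of 9 same-numbered pairs (range -0.27 to 0.25) and in 4 of 18 others (range -0.38 to 0.26). With 3 libraries a group, these correlations cannot decide whether the libraries were paired. No gene of the 9 passed for curcumin with CuCl2 against curcumin in any alternative. Over all named genes and comparisons, 1295 alternative values kept their side of the threshold, 66 lost a call, 37 gained one and none reversed a call. The ratios within a library could not pass in any alternative, because an exact permutation test of 3 against 3 cannot go below p = 0.1. They therefore give no result on this question.

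Over all genes, the 194 calls for curcumin with CuCl2 and 264 for curcumin were 65 and 45 with only the 2 groups compared, 114 and 104 without a filter, and 1370 and 1457 with mitochondrial share as a covariate. Leaving out 1 library gave 44 (without replicate 1 of curcumin with CuCl2) to 555, and 54 (without replicate 3 of curcumin) to 634, both highest counts being without replicate 3 of palmitic acid alone. Without the variance trend curcumin gave 130. For curcumin with CuCl2 against curcumin the count was 0 to 4. The cause of these moves was not tested. Median-of-ratios scaling raised the log2 fold changes of all genes by a median of 0.04 and 0.03. Depth is unknown, and with 3 libraries a group the intervals of MTHFD2 include 0 in both comparisons with palmitic acid alone.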
